A study of Homo sapiens with 4 samples.

Results

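The glycolysis and hypoxia response genes are 37 listed genes, namely the enzymes that turn glucose into lactate, the transporters of glucose and lactate, the oxygen-sensing machinery and the targets of hypoxia-inducible factor (HIF). They were followed in L591 cells, a Hodgkin lymphoma line, that received PDLIM2 or an empty plasmid. Every probe of the array whose annotated symbol is a listed gene was taken. This gave 59 probes for 34 genes, out of 47230 complete probes and 20045 named genes. The lactate transporters SLC16A1 and SLC16A3 and the carbonic anhydrase CA9 were not analysed here. PKM2 was read under its current symbol, PKM.

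The mock group received the empty plasmid pcDNA3, and the PDLIM2 group received pcDNA3 carrying transcript variant 2 of PDLIM2, a PDZ and LIM domain protein that is a putative ubiquitin ligase. All cells had 40 µg of the expression plasmid and 10 µg of the GFP plasmid pEGFP-N3, and GFP-positive cells were sorted, so the sort selects uptake of the GFP plasmid and not PDLIM2 itself. There were 2 Illumina bead arrays a group, with the numbers 1 and 2 in their labels. Whether these stem from separate cultures is not stated, so the p-values reflect the spread of these samples alone, and that spread may be technical.

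Glycolysis splits glucose in an investment stage that spends ATP and a payoff stage that returns it, and lactate dehydrogenase then regenerates the cofactor that lets the pathway run. Under low oxygen the prolyl hydroxylases that mark HIF-alpha for destruction lose activity, and stabilised HIF raises transcription of glucose importers, most glycolytic enzymes and a set of survival and vessel-forming genes. As background, lymphoma cells in culture commonly use glucose this way with oxygen present.

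All 4 arrays had medians between 6.006 and 6.007 log2 units. The 2 PDLIM2 probes were dim and had differences of opposite sign (0.31 and -0.29 log2 units), and it is not known here whether the transfected cDNA holds either, so they do not check the labels. Among the Hodgkin cell markers, CCL22 read between 13.73 and 14.13. The Hodgkin cell markers CD40, FSCN1, IRF4 and TRAF1 lay at percentile 94.2 of all probes or above, while CCL17 read only 5.71 to 6.44. TNFRSF8, the CD30 antigen of Hodgkin cells, read only 6.44 to 7.05, and the B-cell genes MS4A1 and PAX5 lay at percentiles 53.2 and 23.8 of all probes. Of the T and NK cell markers, CD3D, CD3E, CD3G and CD8A were under the brightness filter described next. CD2 read 11.59 to 12.17 and NKG7 read 7.34 to 7.55, both past it. The mean level over the 4 myeloid markers with a probe lay between 6.18 and 6.48 on the arrays. Of these, LYZ and MPO were under the filter, while CD14 (6.25 to 6.67) and CSF1R (6.95 to 7.63) were past it. CSF1R lay at percentile 73.1 of all probes and TNFRSF8 at 68.3.

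A probe was tested when its mean over the 4 arrays exceeded the median of all probe means, 5.99 log2 units. The brightest probe stood for its gene, and by that rule 32 of the 34 genes were tested. EGLN3 and EPAS1 lay under the filter, at 5.68 to 5.83 and 5.32 to 5.57 log2 units. The dimmest genes above it were PDK1, ADM and NDRG1, with means of 6.09, 6.09 and 6.15. Differences are PDLIM2 minus mock in log2 units, with standard errors (SE) and two-sided p-values from limma.

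No glycolysis or hypoxia gene passed the test. The count was 0 higher and 0 lower of 32 genes at an adjusted p under 0.05 in limma (adjusted p = 0.9998 for each), beside 0% of all 23615 tested probes in either direction. At an unadjusted p under 0.05 the count was also 0 of 32 genes, beside 2.82% of all tested probes. The differences ran from -0.49 (HIF1A) to 0.32 (PFKM), and none reached 1.5-fold, which 2.09% of all tested probes exceeded. The median over the 32 genes was -0.051, beside 0.012 over all tested probes, and the median size of a difference, without its sign, was 0.123 in both. In bulk RNA from a sorted population, fewer cells carrying a transcript and less of it per cell cannot be told apart.

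The width of the intervals shows what these arrays could resolve. The 95% interval of the difference held 0 for all 32 genes, and its typical reach was 0.429 log2 units to either side (median). For 16 genes it lay within 1.5-fold in either direction, ENO1 (-0.36 to 0.42) and PGK1 (-0.45 to 0.37) among them. For 31 it lay within 2-fold, the exception being HIF1A (-1.13 to 0.15). A difference smaller than that reach could not be told from 0 for a typical gene with 2 arrays a group. The reach is not the limit for a call, since the intervals are not adjusted for the 23615 probes tested. A PGAM1 probe with a difference of -0.71 was not called either (limma, adjusted p = 0.9998).

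**Figure D1:**
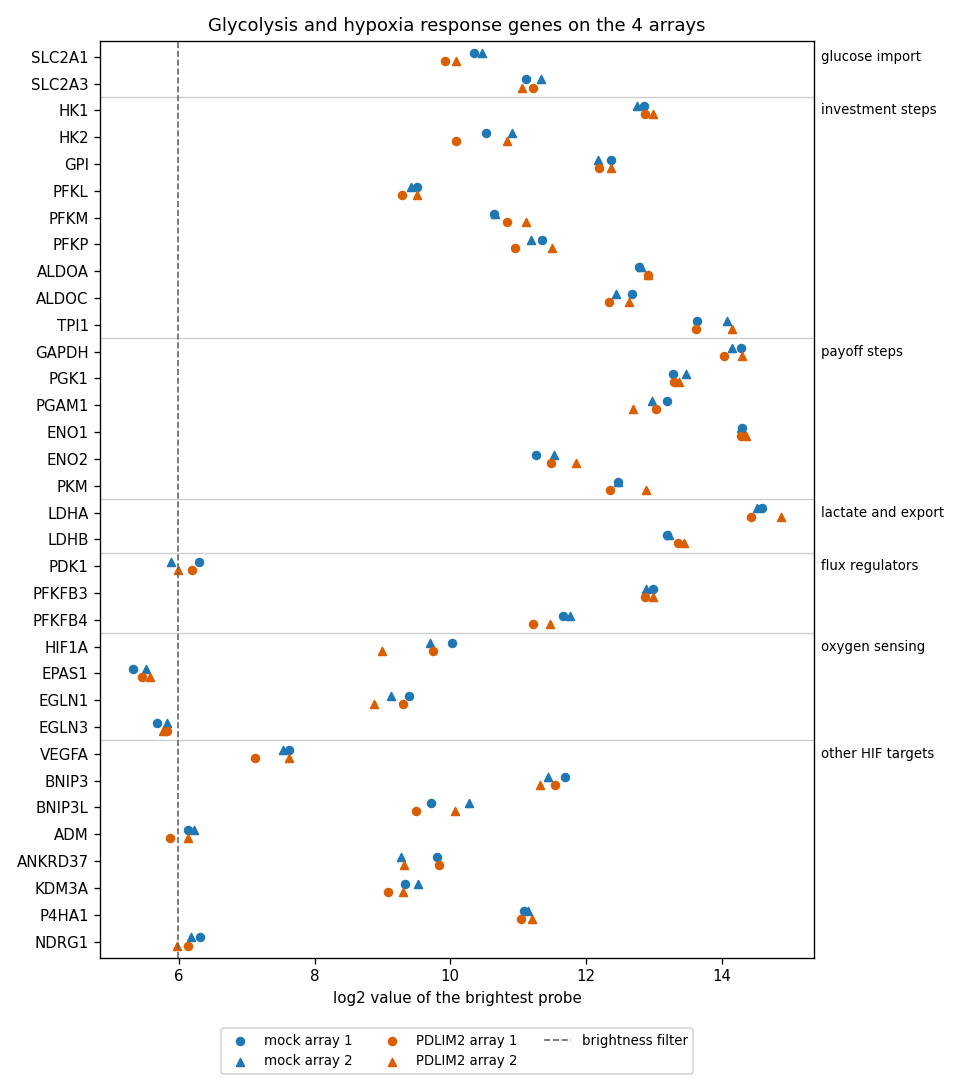
Log2 value of the brightest probe of each of the 34 genes, grouped by role (x axis, log2 units), with 1 point per array: blue for mock, orange for PDLIM2, circles for arrays numbered 1 and triangles for arrays numbered 2. The dashed line is the brightness filter at 5.99, with EGLN3 and EPAS1 to its left. Since probes differ in affinity, positions do not order the genes by abundance. SLC2A1 and PFKFB4 are among the genes whose colours do not overlap.

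The 17 enzymes tested and the other 15 genes had values with different balances. With PDLIM2, 10 enzymes had higher values and 7 lower ones by their brightest probes, and their median was 0.03. Over all 30 tested enzyme probes, 16 had higher and 14 lower values. With the mean over probes, ALDOA, HK1 and PKM turned lower and GAPDH higher. Of the 15 importers, flux regulators, oxygen-sensing genes and other HIF targets, 2 had higher values and 13 lower ones, and their median was -0.17. These counts include differences close to 0, PFKFB3 (-0.00088) and PDK1 (-0.0018) as lower and P4HA1 (0.004) as higher. Over all 20 tested probes of these genes, 4 had higher and 16 lower values. Over all 32 genes, 20 had lower values (62.5%, beside 47.2% of all tested probes) and 12 higher values (37.5%, beside 52.8%). The split into these groups was made with the values known, no member passed, and the groups' difference was not tested. The median of the enzymes was -0.135 in the number 1 pair (the PDLIM2 array 1 minus the mock array 1) and 0.175 in the number 2 pair, so its sign was not the same in both pairs. Of the 17 enzymes 11 had lower values in the number 1 pair and 3 in the number 2 pair. For the other 15 genes the medians were -0.187 and -0.205, with 13 and 10 lower values. The pairs hold the same arrays whose values were known when the split was made, so they do not check it. In the further lists given below, 28 tested HIF response genes had 13 higher and 15 lower values, with a median of -0.03. The 31 tested neighbours of glycolysis had 18 higher and 13 lower values, with a median of 0.04.

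**Figure D2:**
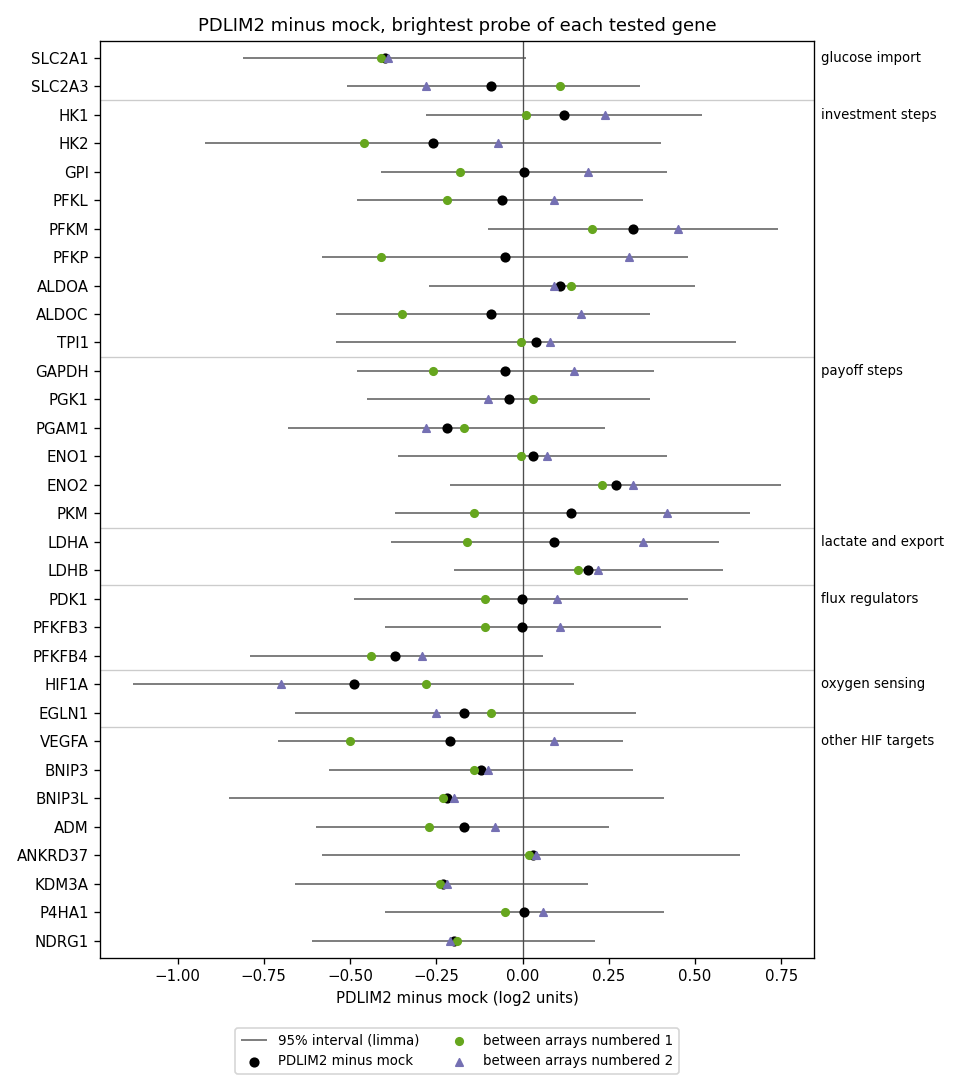
PDLIM2 minus mock for the 32 tested genes (x axis, log2 units), grouped by role. Black points are the fitted difference with its 95% interval from limma, green circles the difference between the arrays numbered 1 and purple triangles that between the arrays numbered 2. All 32 intervals hold 0. The circles and triangles lie close together for SLC2A1, KDM3A, NDRG1, BNIP3L and BNIP3, with lower values, and for ANKRD37 and ALDOA, with higher values. Those of PFKP, LDHA and VEGFA lie on opposite sides of 0.

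Promoter windows of 5 members are printed. By the brightest probe of each gene, SLC2A1 and PFKFB4 had the smallest unadjusted p-values in limma. HK2 and LDHA had the windows with most matches to ACGTG, and ANKRD37 was among the genes that differed between array numbers. Each window runs from 250 bases before to 50 bases after a transcription start, from RefSeq on GRCh38.p14, 5′ to 3′ on the gene's strand. Capitals mark the core letters of the hypoxia response element on either strand, namely ACGTG or its variant GCGTG. For HK2 and LDHA the printed window is the one with the most matches among several starts.
SLC2A1, chr1:42958819-42959118, minus strand: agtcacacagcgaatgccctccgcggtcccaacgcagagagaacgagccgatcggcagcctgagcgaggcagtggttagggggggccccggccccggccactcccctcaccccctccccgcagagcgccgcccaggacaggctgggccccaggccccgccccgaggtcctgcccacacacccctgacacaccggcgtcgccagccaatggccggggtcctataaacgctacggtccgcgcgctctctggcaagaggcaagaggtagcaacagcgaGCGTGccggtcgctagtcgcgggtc
PFKFB4, chr3:48556754-48557053, minus strand: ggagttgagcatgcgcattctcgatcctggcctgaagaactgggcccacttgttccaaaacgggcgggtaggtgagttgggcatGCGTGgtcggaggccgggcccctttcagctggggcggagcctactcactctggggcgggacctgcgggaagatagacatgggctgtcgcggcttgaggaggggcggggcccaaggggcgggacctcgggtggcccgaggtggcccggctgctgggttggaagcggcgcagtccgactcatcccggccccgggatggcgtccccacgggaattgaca
HK2, chr2:74834920-74835219, plus strand: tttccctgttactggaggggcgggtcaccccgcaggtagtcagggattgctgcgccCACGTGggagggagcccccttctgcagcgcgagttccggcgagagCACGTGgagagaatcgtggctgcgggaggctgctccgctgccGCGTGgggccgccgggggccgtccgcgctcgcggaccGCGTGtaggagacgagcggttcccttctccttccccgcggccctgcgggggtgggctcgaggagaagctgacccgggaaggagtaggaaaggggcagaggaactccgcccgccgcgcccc
LDHA, chr11:18394313-18394612, plus strand: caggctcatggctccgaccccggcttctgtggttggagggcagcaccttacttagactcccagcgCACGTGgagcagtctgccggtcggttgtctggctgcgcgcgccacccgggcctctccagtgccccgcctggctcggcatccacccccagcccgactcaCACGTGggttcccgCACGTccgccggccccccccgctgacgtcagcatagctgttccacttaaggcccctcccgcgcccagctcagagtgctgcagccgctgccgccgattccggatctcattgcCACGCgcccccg
ANKRD37, chr4:185396591-185396890, plus strand: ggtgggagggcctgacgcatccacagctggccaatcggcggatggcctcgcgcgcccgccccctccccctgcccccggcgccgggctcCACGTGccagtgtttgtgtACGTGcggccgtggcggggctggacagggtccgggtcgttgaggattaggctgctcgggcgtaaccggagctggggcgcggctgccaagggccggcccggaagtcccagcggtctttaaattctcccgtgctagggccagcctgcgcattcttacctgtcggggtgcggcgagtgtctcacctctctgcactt

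CACGTG reads the same on both strands and therefore counts as 2 matches to ACGTG. Counted so, the printed window held 5 matches to ACGTG for LDHA, 4 for HK2, 3 for ANKRD37 and 0 for SLC2A1 and PFKFB4, which each held 1 match to GCGTG. The letters ACGTG were in 23 of the 60 member windows (38.3%), beside 21.4% of all 35116 windows, and GCGTG in 41.7% beside 36.5%. A window was found for 32 of the 37 listed genes. A letter match is a description and not a bound site. The 17 tested members with ACGTG in any window had differences from -0.26 to 0.32 (median under 0.01 in size), and the 11 without it from -0.49 to 0.19 (median -0.17). Members with several starts have more chances of a match, so these values are set side by side and not compared further.

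Both glucose importers among the members had lower values with PDLIM2. The further tested genes of the SLC2A family, SLC2A5, SLC2A6 and SLC2A8, differed by 0.04, 0.06 and 0.01. SLC2A1 encodes GLUT1, the basal glucose transporter and a HIF target. SLC2A1 read 10.35 and 10.47 with the empty plasmid (arrays 1 and 2) and 9.93 and 10.09 with PDLIM2 (arrays 1 and 2). Both PDLIM2 values lay below both mock values. The difference was -0.40 (SE 0.17), 0.758 times the mock level, -0.41 in the number 1 pair and -0.39 in the number 2 pair. The unadjusted p was 0.0534 and the adjusted p was 0.9998 (limma), the smallest unadjusted p of the 32 genes. With an array left out the SLC2A1 difference ran from -0.48 to -0.32. SLC2A3, the high-affinity transporter GLUT3, differed by -0.09 (SE 0.18), with opposite signs between the arrays numbered 1 (0.11) and 2 (-0.28).

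Groups did not overlap for 9 of the 32 genes. Both PDLIM2 arrays lay below both mock arrays for 5 genes, SLC2A1, PFKFB4, ADM, KDM3A and NDRG1, which is 15.6% beside 12.8% of all tested probes. They lay above for 4 genes, HK1, PFKM, ALDOA and LDHB, which is 12.5% beside 15.8%. Within both array numbers 11 genes had lower values (34.4% beside 25.2%) and 6 had higher values (18.8% beside 29.5%). The other 15 had opposite signs in the 2 numbers (46.9% beside 45.4%). No test was made of these shares.

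Hexokinases trap glucose in the cell, and HK2 is the inducible form that HIF targets. The HK2 probe read 10.53 and 10.91 with the empty plasmid (arrays 1 and 2) and 10.08 and 10.84 with PDLIM2. The groups overlapped, and array 2 was the higher in each. The difference was -0.26 (SE 0.28), -0.46 in the number 1 pair and -0.07 in the number 2 pair, and it became 0.12 without the PDLIM2 array 1. The further HK2 probe had -0.40 (SE 0.23). HK1, the constitutive form, read 12.86 and 12.75 with the empty plasmid and 12.87 and 12.99 with PDLIM2, a difference of 0.12 (SE 0.17). Its other tested probe, much dimmer, had -0.44 (SE 0.30).

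Phosphofructokinase catalyses the committed step, and its 3 subunit genes had differences of both signs. PFKM, the muscle-type subunit, read 10.65 and 10.66 with the empty plasmid and 10.84 and 11.11 with PDLIM2. These PDLIM2 values were both above the mock values, and the difference of 0.32 (SE 0.18) was the highest of the 32 genes. PFKL, the liver-type subunit, read 9.51 and 9.42 against 9.29 and 9.51, with overlapping groups and a difference of -0.06 (SE 0.18). PFKP, the platelet-type subunit, differed by -0.41 in the number 1 pair and by 0.31 in the number 2 pair. Its fitted difference was -0.05 (SE 0.22). The 3 probes lay at mock percentiles 93.1 (PFKM), 87.1 (PFKL) and 95.4 (PFKP) of all probes, and since probes differ in affinity these do not order the subunits by abundance.

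GPI, which isomerises glucose 6-phosphate, differed by under 0.01 (SE 0.18). Aldolase cleaves the six-carbon sugar, and both of its measured genes were bright in the mock arrays, ALDOA at percentile 98.4 and ALDOC, the brain-type form, at 98.1. The ALDOA probe used read 12.79 and 12.82 with the empty plasmid and 12.92 and 12.91 with PDLIM2. The PDLIM2 values lay above, by 0.11 (SE 0.16). A further ALDOA probe of nearly the same brightness read 13.21 and 12.98 against 12.95 and 12.28, a difference of -0.48 (SE 0.25). ALDOC differed by -0.09 (SE 0.19). TPI1, which interconverts the triose phosphates, differed by 0.04 (SE 0.25), and its array 2 was the higher in both groups, by 0.44 and 0.53.

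GAPDH, ENO1 and PGK1, of the payoff stage, had small differences. GAPDH, the triose phosphate dehydrogenase often used as a reference transcript, read 14.29 and 14.15 with the empty plasmid and 14.03 and 14.30 with PDLIM2. Its groups overlapped, with a difference of -0.05 (SE 0.18), and the further GAPDH probes had 0.11 and 0.02. ENO1, the ubiquitous enolase, read 14.30 and 14.29 against 14.29 and 14.36, a difference of 0.03 (SE 0.17). PGK1, which makes the payoff stage's first ATP, differed by -0.04 (SE 0.17). Its dimmer probe had -0.17 (SE 0.18), with both PDLIM2 values below both mock values. GAPDH and PGAM1 have many processed pseudogenes of similar sequence, so their probe values are uncertain.

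ENO2, the neuron-type enolase and a HIF target, had the second highest difference. The ENO2 probe read 11.27 and 11.53 with the empty plasmid (arrays 1 and 2) and 11.49 and 11.85 with PDLIM2. The groups overlapped through array number, and the difference was 0.27 (SE 0.20), with 0.23 and 0.32 between the arrays numbered 1 and 2. With an array left out it ran from 0.09 to 0.45.

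PGAM1, the phosphoglycerate mutase, read 13.19 and 12.97 with the empty plasmid and 13.03 and 12.69 with PDLIM2. Its groups overlapped and its difference was -0.22 (SE 0.20). The dimmer PGAM1 probe (ILMN_1661366) read 12.26 and 12.16 against 11.87 and 11.13, so both PDLIM2 values lay below both mock values. Its difference of -0.71 (SE 0.26) was the lowest of all 50 tested member probes. The unadjusted p was 0.027 and the adjusted p was 0.9998 (limma). Without the PDLIM2 array 1 this probe had -1.08 (limma, adjusted p = 0.00199), and without the PDLIM2 array 2 it had -0.34. The fit without the PDLIM2 array 1 called 647 of all 23615 tested probes lower (2.74%) and 163 higher.

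Pyruvate kinase, which PKM encodes in 2 splice forms, had probes of opposite sign. The brightest PKM probe read 12.48 and 12.47 with the empty plasmid and 12.35 and 12.89 with PDLIM2, a difference of 0.14 (SE 0.22) with overlapping groups. A further PKM probe had 0.15 (SE 0.20). The third (ILMN_1672650) read 10.96 and 10.89 against 10.57 and 9.97, below both mock values in both PDLIM2 arrays, with a difference of -0.65 (SE 0.23). Its unadjusted p was 0.0243 and its adjusted p was 0.9998 (limma). Without the PDLIM2 array 1, in the fit with 647 lower calls, the value was -0.95 (limma, adjusted p = 0.0104), and without the PDLIM2 array 2 it was -0.35. GEO's platform annotation pairs the 3 PKM probes with 3 different transcripts, and whether they separate the splice forms was not determined here.

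Opposite signs between probes of 1 gene were found for 7 of the 13 members with 2 or more tested probes (53.8%), beside 45.7% of all such genes. These members were HK1, ALDOA, GAPDH, PKM, LDHA, PFKFB3 and VEGFA. The distance from the lowest to the highest probe of a gene had a median of 0.198, beside 0.188 over all genes with several tested probes. Over the 50 tested member probes, 2 had an unadjusted p under 0.05 (4%, beside 2.82%) and 0 passed. The PDLIM2 array 2 was the lowest of the 4 arrays for 13 of these 50 probes, and for 28.5% of all tested probes.

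**Figure D3:**
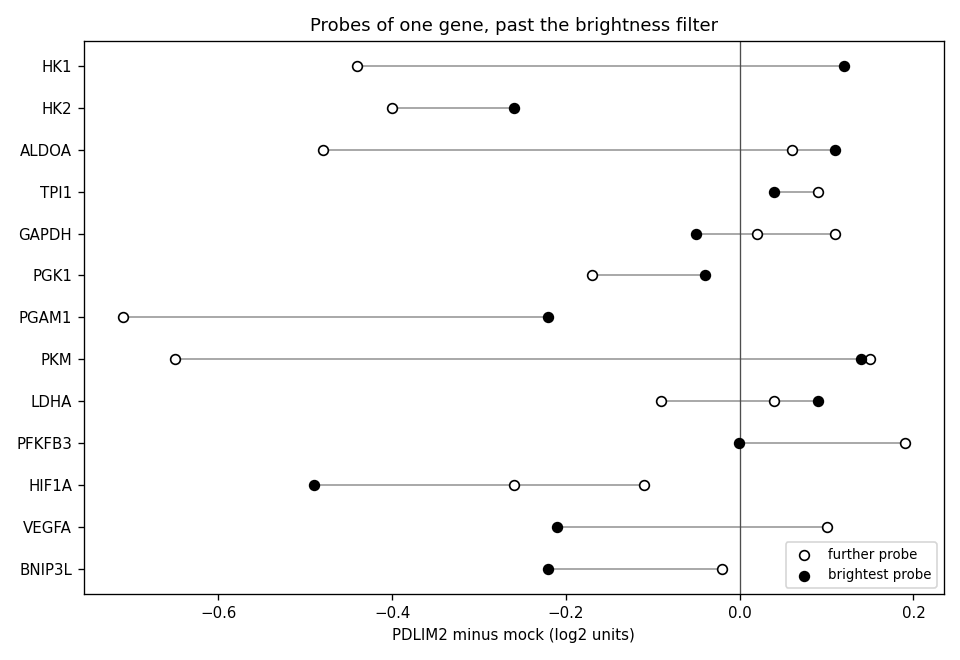
PDLIM2 minus mock (x axis, log2 units) for each tested probe of the 13 genes with 2 or more of them. Filled points are the brightest probe of a gene, open points its further probes, and a line joins the probes of 1 gene. An open point each of PGAM1 (-0.71), PKM (-0.65), ALDOA (-0.48) and HK1 (-0.44) lies far to the left of that gene's filled point.

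By their brightest probes, both lactate dehydrogenase genes had slightly higher values, but for LDHA the sign depended on the probe. LDHA, the form that favours making lactate, read 14.60 and 14.53 with the empty plasmid and 14.44 and 14.88 with PDLIM2. These groups overlapped, the difference was 0.09 (SE 0.20), and the sign differed between the arrays numbered 1 (-0.16) and 2 (0.35). A further LDHA probe of nearly the same brightness had -0.09 (SE 0.17), with both PDLIM2 values below both mock values. The dimmest LDHA probe had 0.04 (SE 0.18), and the mean over the LDHA probes gave 0.01. LDHB, the form that favours using lactate, read 13.20 and 13.23 against 13.36 and 13.45. Both LDHB values with PDLIM2 lay above the mock values, by 0.19 (SE 0.17), and its difference stayed between 0.15 and 0.23 with an array left out. The probes lay at mock percentiles 99.9 (LDHA) and 98.8 (LDHB).

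Among the flux regulators, PFKFB4 stood lowest. The bifunctional PFKFB enzymes make and break fructose 2,6-bisphosphate, the activator of phosphofructokinase. PFKFB4 read 11.66 and 11.76 with the empty plasmid and 11.22 and 11.47 with PDLIM2. Both PDLIM2 values lay below both mock values, with a difference of -0.37 (SE 0.18), and -0.44 and -0.29 between the arrays numbered 1 and 2. The range with an array left out was -0.49 to -0.24. PFKFB3, a HIF-inducible isoform with high kinase activity, differed by under 0.01 (SE 0.17), and its dimmer probe had 0.19. PDK1, which shuts off pyruvate dehydrogenase and so keeps pyruvate out of mitochondria, was dim and read 6.30 and 5.88 in the mock arrays against 6.19 and 5.98. The PDK1 groups overlapped and the difference was under 0.01 (SE 0.21).

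HIF1A, the oxygen-regulated subunit of HIF, had the lowest difference of the 32 genes, and 1 array decided its size. The HIF1A probe read 10.02 and 9.70 with the empty plasmid (arrays 1 and 2) and 9.75 and 9.00 with PDLIM2. The groups overlapped, and the PDLIM2 array 2 alone was clearly below the rest. The difference was -0.49 (SE 0.27), -0.28 in the number 1 pair and -0.70 in the number 2 pair. Leaving out the PDLIM2 array 2 gave -0.12. Leaving out the PDLIM2 array 1 gave -0.86, and limma called that value (adjusted p = 0.0285) along with 2.74% of all tested probes on the lower side. A fit with 3 arrays leaves 1 alone in its group, which is assumed to vary like the other group. The further HIF1A probes had fitted differences of -0.11 (SE 0.21) and -0.26 (SE 0.26). The first had -0.20 in the number 1 pair and -0.01 in the number 2 pair. The second had opposite signs in the pairs, 0.15 and -0.66, so only the PDLIM2 array 2 was low there too. HIF activity is set mainly by protein stability, which these arrays do not measure.

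EGLN1, the main prolyl hydroxylase that marks HIF-alpha, read 9.39 and 9.13 with the empty plasmid and 9.31 and 8.88 with PDLIM2. Its array 2 was the lower in both groups, and the difference was -0.17 (SE 0.21). EGLN3, a HIF-inducible hydroxylase, and EPAS1, which encodes HIF-2 alpha, were under the filter, with differences of 0.05 and 0.09 in the fit on all probes.

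Of the 8 other HIF targets tested, 6 had lower and 2 higher values, with a median of -0.19, and 5 had lower values within both array numbers. Of all tested probes 47.2% had lower values and 25.2% had them within both numbers, and these counts were not tested. KDM3A, a histone H3K9 demethylase, read 9.33 and 9.52 with the empty plasmid and 9.08 and 9.30 with PDLIM2. Both PDLIM2 values lay below the mock values, with a difference of -0.23 (SE 0.18). BNIP3L, a mitophagy receptor, read 9.72 and 10.27 against 9.49 and 10.07. Its groups overlapped since array 2 was the higher in each by 0.55 and 0.57, and the difference was -0.22 (SE 0.27), with -0.23 and -0.20 between the arrays numbered 1 and 2. The dimmer BNIP3L probe had -0.02 (SE 0.23), with opposite signs in the 2 numbers (-0.06 and 0.02), and the mean over both probes gave -0.12. BNIP3, its relative, differed by -0.12 (SE 0.19).

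VEGFA, the vascular endothelial growth factor, read 7.63 and 7.53 with the empty plasmid and 7.12 and 7.62 with PDLIM2, with overlapping groups. The PDLIM2 array 1 alone was low, and the difference was -0.21 (SE 0.21). It was 0.04 without that array, and a dimmer tested VEGFA probe had 0.10. The dim genes ADM, a vasodilator peptide, and NDRG1, a stress-induced gene, had -0.17 (SE 0.18) and -0.20 (SE 0.17). ANKRD37, an ankyrin repeat gene induced by HIF, differed by 0.03 (SE 0.26), and P4HA1, a collagen prolyl hydroxylase, by under 0.01 (SE 0.17).

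These genes differed more between the array numbers than between the groups, by the median size of the difference, and so did all tested probes. The arrays numbered 2 differed from those numbered 1 by a median size of 0.175 log2 units over the 32 genes, beside 0.123 for PDLIM2 minus mock. All tested probes had the same 2 medians, 0.175 and 0.123. The number difference was the larger for 18 of the 32 genes (56.2%), beside 60.8% of all tested probes. It ran the same way in both groups for 19 genes (59.4%, beside 65.1%). ANKRD37 was lower in array 2 by 0.53 in the mock and 0.51 in the PDLIM2 group. HK2 was higher in array 2 by 0.38 and 0.77, and TPI1 and BNIP3L were higher in both groups as given above. No gene passed 1.5-fold in both groups (0 of 32, beside 2.16%). What the number stands for is not in the labels. With the number as a block in the fit, 0 of the 32 genes were called (limma), and the adjusted p was 0.572 for HIF1A and 0.604 for SLC2A1.

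**Figure D4:**
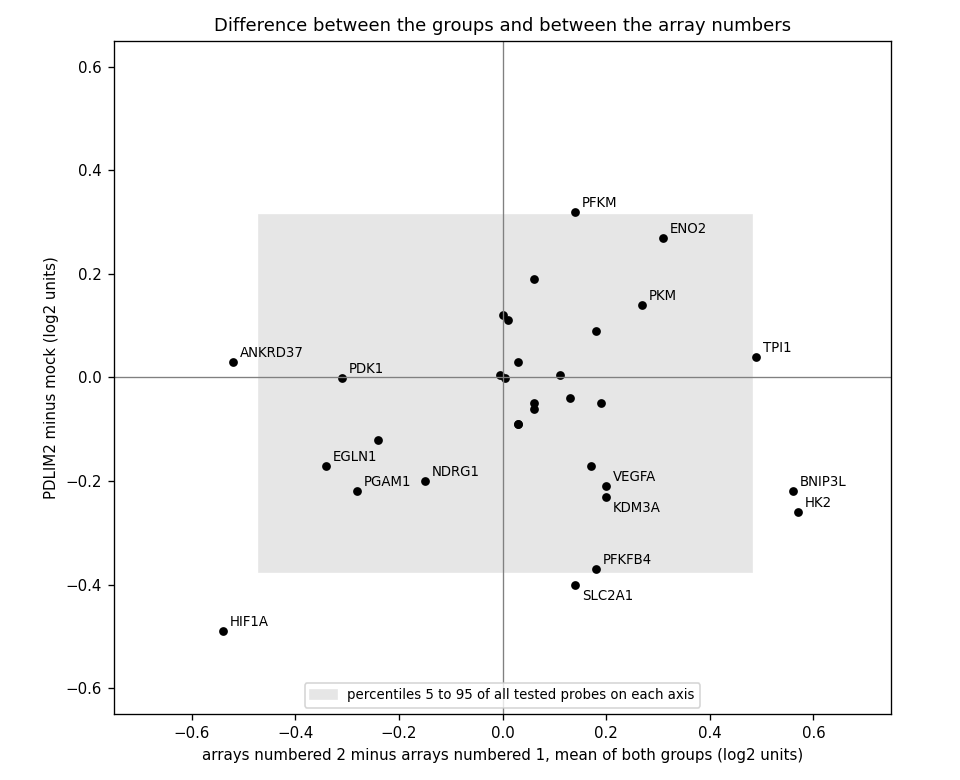
Difference between the array numbers (x axis, arrays numbered 2 minus 1, mean of both groups) against PDLIM2 minus mock (y axis) in log2 units, with 1 point for each of the 32 tested genes and the same scale on both axes. The grey box spans percentiles 5 to 95 of all tested probes on each axis. On the y axis 29 of the 32 genes lie within it, HIF1A and SLC2A1 lie below it and PFKM above it.

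Further genes of the pathways, from a list of glycolytic neighbours and a list of oxygen-sensing and HIF response genes, gave no call either. Of 31 tested neighbours of glycolysis, 18 had higher and 13 lower values, with a median of 0.04 and 0 past the test. Of 28 tested HIF response genes, 13 had higher and 15 lower values, with a median of -0.03 and 0 past the test (limma, adjusted p = 0.9998 for each gene named here). At an unadjusted p under 0.05 the counts were 0 and 1. That gene was BHLHE40, a HIF-induced transcriptional repressor, which read 12.24 and 12.64 with the empty plasmid and 11.87 and 12.04 with PDLIM2. Both PDLIM2 values lay below the mock values, with a difference of -0.49 (SE 0.20). VHL, the ubiquitin ligase subunit that binds hydroxylated HIF-alpha, read 11.16 and 10.86 against 10.97 and 10.29, a difference of -0.38 (SE 0.26). The nuclear receptor gene RORA read 9.93 and 9.50 against 9.52 and 9.21, a difference of -0.35 (SE 0.21). In both genes the groups overlapped and array 2 was the lower in each group. On the higher side HMOX1, the haem oxygenase, read 10.83 and 10.18 against 11.58 and 10.28, a difference of 0.42 (SE 0.42). The demethylase gene KDM4B read 6.93 and 7.29 against 7.09 and 7.83, a difference of 0.35 (SE 0.27). The liver-type pyruvate kinase gene PKLR read 5.92 and 6.30 against 6.09 and 6.70, a difference of 0.28 (SE 0.25). The groups of these 3 genes overlapped too.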

How the data were processed

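RNA of 4 samples of L591 cells was measured on Illumina bead arrays. The table the authors deposited has log2 values. How they were scanned, background-corrected and normalized is not given in the sources used here. Quartiles of the deposited values differed by at most 0.0008 log2 units over the arrays, so the values were left unchanged. No detection p-value was used, the distance of a dim probe from background is not known, and the number of arrays limits the precision. The table held 47231 probes, of which 1 had an empty cell and was left out. GEO's platform annotation gave 1 gene symbol for 30113 probes, several for 8 and none for 17110, and symbols were updated through RefSeq (GRCh38.p14).

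The fit used limma 3.58.1 (lmFit, eBayes) in R 4.3.3 on the 23615 probes above the brightness filter, without the array number, with Benjamini-Hochberg adjustment over all of them at 0.05. Residual degrees of freedom were 2 and the prior added 5.1. The script was tested on simulated arrays with independent noise and changes larger than any member difference. That run does not show whether differences of the size found here could be detected. The members, lists and named genes were chosen with earlier results of these data known, and no list was tested. Named with all 4 values were the 6 genes per direction with the largest difference and 1 or more genes per role, and of the further lists the 3 per direction with the largest difference. The members ANKRD37, TPI1 and BNIP3L and the probes of PGAM1, PKM and ALDOA were singled out after their values were seen.

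The alternatives were an offset of 50, quantile normalization, testing all probes or those above the 75th percentile, limma-trend, a robust prior, the array number as a block, the mean over the tested probes of a gene and each array left out.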

Additional observations from a re-analysis of the deposited data

How the results depend on the processing

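The 0 calls among the members held in limma with all probes tested, above the 75th percentile, with quantile normalization, the offset of 50, limma-trend, the robust prior, the replicate block and the mean over probes. The deposited arrays share their quartiles, so quantile normalization could change little. The labels give same-numbered arrays nothing in common but the number. Over probes, which are not independent, the deviations of such arrays from their group means correlated at r = 0.476. With the replicate block 0 probes were called higher and 1 lower, which belongs to no member. Of 158 values of named genes under these alternatives, 154 kept their direction. The exceptions came with the mean over probes, which gave ALDOA -0.10, HK1 -0.16, PKM -0.12 and GAPDH 0.03, since further probes of these genes had the opposite sign. Much of the agreement was set in advance. Another brightness filter, limma-trend, the robust prior and the replicate block leave the fitted difference of a probe unchanged. The mean over probes can change it only for genes with several tested probes. The 154 kept directions are therefore no measure of how firm the directions are.

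Fits without 1 array leave a group with a lone array and unbalance the numbers. The member median then ran from -0.0997 to 0.0588, the lowest without the PDLIM2 array 2 and the highest without the PDLIM2 array 1. Members called higher were 0 in each such fit and members called lower 0 to 1 (HIF1A, -0.86 to -0.12). Probes called ran from 0 to 163 higher and 0 to 647 lower, the highest counts without the PDLIM2 array 1. Of the 32 tested genes, 20 changed sign in at least 1 of these fits. Among the named ones the ranges were -0.50 to 0.07 for BNIP3L, -0.38 to 0.04 for EGLN1, -0.0025 to 0.07 for ENO1, -0.19 to 0.08 for GAPDH, -0.64 to 0.12 for HK2, -0.13 to 0.31 for LDHA, -0.21 to 0.21 for PDK1, -0.17 to 0.05 for PFKL, -0.13 to 0.42 for PKM and -0.46 to 0.04 for VEGFA. The cause was not tested.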
